A study of Mus musculus with 6 samples.

Results

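The 10 genes followed here belong to MHC class II antigen presentation and were measured in cultured mouse microglia: the chain genes H2-Aa, H2-Ab1 and H2-Eb1, the invariant chain gene Cd74, the peptide-editing genes H2-DMa, H2-DMb1, H2-DMb2, H2-Oa and H2-Ob, and the regulator Ciita. They were chosen by name as the rows of the deposited count and FPKM tables that carry these symbols, and all 10 were found among the 41079 genes listed. Total RNA was sequenced from microglia of C57Bl/6N mice aged 1 to 3 days, grown out of pooled brain suspensions in flasks stimulated with L-929 conditioned medium, harvested by shaking and replated. In the 3 control libraries the cells were kept in serum-free DMEM/F12. In the 3 libraries from optimized conditions this medium also held human TGFbeta, human IL34 and CX3CL1 at 100 ng/mL each. The study's methods add cholesterol, insulin-transferrin-selenium and a collagen IV coating to the optimized conditions, which the deposited labels do not name, so the effects of the cytokines and of the other additions cannot be told apart in these libraries. The comparison asked whether these central nervous system niche cues altered the class II genes.

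Class II molecules are heterodimers of an alpha and a beta chain that carry peptides from endosomes and lysosomes to the cell surface for recognition by CD4+ T cells. The chains assemble in the endoplasmic reticulum with the invariant chain Cd74, which occupies the peptide groove and is then cut away by cathepsins until a short fragment remains. H2-DM, the chaperone formed by an H2-DMa and an H2-DMb chain, exchanges this fragment for peptide, and H2-DO, formed by H2-Oa and H2-Ob, restrains H2-DM. Transcription of the chain genes depends largely on Ciita, a coactivator without DNA binding of its own, which docks on factors bound to conserved promoter boxes. Microglia carry little class II in the healthy brain and are known to raise it after interferon-gamma.

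The genes did not move as 1 block. Of the 10 members, 9 had enough counts to be tested, and 6 of the 9 were higher under optimized conditions, against 14.7% of all 14618 genes tested that were called higher. Those 6 were H2-Ab1 and the entire set of H2-DM and H2-DO genes. One member, Cd74, was lower, against 15.2% of all genes tested that were called lower. Ciita and H2-Aa did not pass the threshold, set at 0.05 for the Benjamini-Hochberg adjusted p of edgeR's quasi-likelihood test over all genes tested. The median log2 fold change of the 9 was 1.42, while that of all genes tested was 0.01. By scaled level, 6 members had all 3 optimized libraries above all 3 control libraries, which held for 21.4% of the genes tested, and 1 member had them all below, which held for 22.5%. In bulk RNA, fewer cells of a type and less RNA per cell cannot be told apart.

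The libraries held 20628148 to 27261839 counts. Levels are given as CPM after edgeR's TMM scaling, the counts of a gene relative to the scaled library total, as mean ± SD with n = 3 libraries per group. No library was a copy of another, with a chi-square per degree of freedom of at least 10.7 between replicates, and optimized library 1 stood apart from the other two of its group, with values of 78.3 and 46.2 against them and 14.5 between those. The study calls the samples biological replicates, but the labels do not tie each library to a culture of its own, so that p-values measure the spread between these libraries. The microglia and macrophage markers were abundant throughout, their 10 genes summing to 9094 to 9864 CPM in control and 14823 to 19529 CPM in optimized libraries, and 7 of the 10 were higher and 2, Aif1 and Csf1r, were lower. Of other cells that present on class II, dendritic cells and B cells left few marker counts. Of 8 dendritic cell markers, Flt3, Cd209a and Ccr7 had no counts in any library, 3 were lower, and the sum went from 65.4 to 79.1 CPM in control to 45.5 to 50.3 CPM in optimized libraries, most of it from Itgax, which macrophages also express. Of 6 B cell markers, Pax5 had no counts, none was called, and the sum was 3.96 to 5.42 CPM in control and 3.63 to 3.87 CPM in optimized libraries. Of 6 markers of border-associated macrophages, which are known to carry class II, none was at 0 in every library, Mrc1 and Ms4a7 were lower, and Pf4 was higher. The sum was 926 to 1029 CPM in control and 453 to 610 CPM in optimized libraries, nearly all of it from Mrc1, Pf4 and Ms4a7. Lyve1, Cd163 and Cbr2 averaged only 0.09, 0.25 and 0.90 CPM in control and 0.28, 0.02 and 1.28 CPM in optimized libraries. Monocyte markers summed to 2.89 to 4.69 CPM in control and 3.53 to 7.29 CPM in optimized libraries, and T and NK cell markers to at most 0.60 CPM in any library.

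**Figure D1:**
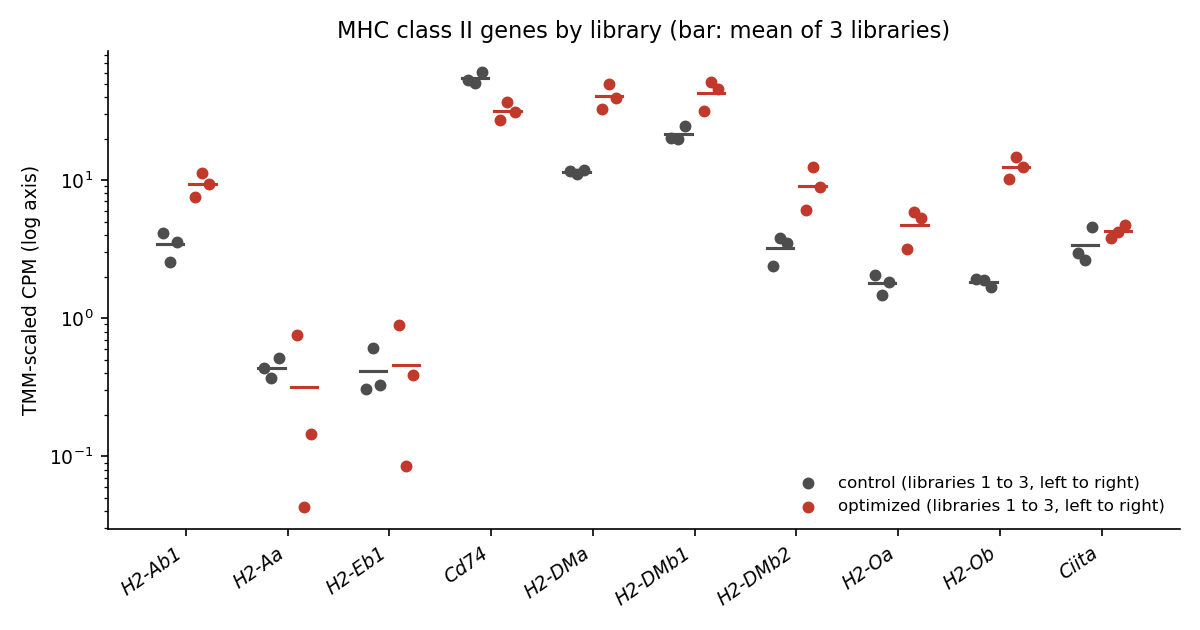
TMM-scaled CPM (log axis) of each of the 10 class II genes in the 3 control libraries (grey) and the 3 optimized libraries (red), with a bar at each group's mean. The optimized libraries sit above the control libraries for H2-Ab1 and the 5 H2-DM and H2-DO genes, below them for Cd74, and on both sides of or overlapping with them for H2-Aa, H2-Eb1 and Ciita.

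The chain genes are described first. H2-Ab1, the beta chain of the A molecule (chromosome 17 from 34476663 to 34488393, plus strand, GRCm39), had 95, 63 and 97 counts in control libraries 1 to 3 and 160, 265 and 193 counts in optimized libraries 1 to 3. The lowest optimized library lay well above the highest control library. Its level rose from 3.42 ± 0.80 to 9.40 ± 1.85 CPM (SD, n = 3 each), or 1.46 ± 0.21 as log2 fold change ± SE (edgeR, adjusted p = 0.00055).

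Its partner did not pass the threshold. H2-Aa, the alpha chain of the same molecule (chromosome 17 from 34493404 to 34506798, minus strand), had 10, 9 and 14 counts in control and 16, 1 and 3 counts in optimized libraries. The highest and the lowest value both came from optimized libraries, so that the groups overlapped. The level was 0.44 ± 0.07 CPM in control and 0.32 ± 0.39 CPM in optimized libraries (SD, n = 3 each), or -0.50 ± 0.74 as log2 fold change ± SE with a 95% interval from -2.16 to 1.15 (edgeR, adjusted p = 0.67). Library 1 of the optimized group decided this value: without it the log2 fold change was -2.21 (edgeR, adjusted p = 0.033), and without optimized library 2 it was 0.04 (adjusted p = 0.98). A difference of the size estimated for H2-Ab1 lay outside the interval, but the interval of H2-Ab1, from 0.98 to 1.94, overlapped with it. At 1 to 16 counts the interval left room for a smaller rise, no difference or a strong fall. Whether H2-Aa and H2-Ab1 differed from each other was not tested.

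H2-Eb1, the beta chain of the E molecule (chromosome 17 from 34504236 to 34535648, plus strand), had 7, 15 and 9 counts in control and 19, 2 and 8 counts in optimized libraries. It was not tested, as its counts were too low in too many libraries, and its groups overlapped at 0.42 ± 0.17 and 0.46 ± 0.41 CPM (SD, n = 3 each). Both genes outside the list that encode E chains were all but silent: H2-Ea, whose promoter is known to be deleted in the haplotype of C57BL/6 mice, had 1 count in all 6 libraries together, and H2-Eb2 had none. H2-Aa and H2-Eb1 overlap at their outermost annotated starts, where they share 118 exon bases on opposite strands in GENCODE M39. How strand was treated in counting is not stated, so reads of one on these bases cannot be told from reads of the other.

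Promoters of class II genes carry an X box, bound by RFX, followed downstream by a Y box, bound by NF-Y, and these boxes are shown here because Ciita acts through them. They were searched on both strands from 250 bases before to 50 after the start of the canonical transcript. The Y core, spelled ATTGG, was in 39.9% of the 21751 promoters of protein-coding genes and in 8 of the 10 members. The X core, spelled AGNAAC and 3 bases later TG, was in 4.34% of promoters and 4 of the 10 members. An X core followed on the same strand by a Y core at 20 to 45 bases was in 0.129% of promoters and in 2 of the 10 members, H2-Eb1 and H2-Ob, with the core starts 33 and 31 bases apart. Windows of 60 bases around the Y core of 6 members, read 5′ to 3′ on the gene's strand from GRCm39, follow with the cores in capitals.
H2-Eb1, chr17:34524737-34524796, plus: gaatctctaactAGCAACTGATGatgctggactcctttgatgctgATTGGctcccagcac
H2-Ob, chr17:34457777-34457836, plus: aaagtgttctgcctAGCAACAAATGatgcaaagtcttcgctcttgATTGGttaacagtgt
H2-Ab1, chr17:34482111-34482170, plus: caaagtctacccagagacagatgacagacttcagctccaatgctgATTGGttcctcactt
H2-Aa, chr17:34506831-34506890, minus: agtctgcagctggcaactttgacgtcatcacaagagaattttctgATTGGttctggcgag
H2-DMb2, chr17:34364088-34364147, plus: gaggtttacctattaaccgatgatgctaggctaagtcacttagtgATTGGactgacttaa
H2-Oa, chr17:34311265-34311324, plus: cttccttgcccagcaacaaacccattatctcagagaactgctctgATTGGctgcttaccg
Of the 2 members with the X core ahead of the Y core in this arrangement, H2-Ob had the largest log2 fold change of the list. H2-Eb1 had too few counts to test, so the response of this pair cannot be compared. H2-Ab1 and H2-Aa each had a Y core and no X core so spelled. The former was called higher, and the latter, with 1 to 16 counts, did not pass the threshold. A match to these letters is a description, and no binding was measured. A missing match to this strict spelling does not show that a box is absent.

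Cd74 was the one member called lower. It encodes the invariant chain and lies on chromosome 18 from 60936899 to 60945731 (plus strand). Cd74 had 1208, 1240 and 1644 counts in control and 572, 869 and 649 counts in optimized libraries, with every optimized library below every control library. Its level fell from 54.5 ± 5.03 to 31.8 ± 4.97 CPM (SD, n = 3 each), or -0.78 ± 0.12 as log2 fold change ± SE (edgeR, adjusted p = 0.001). A microRNA gene, Mir5107, lies inside a Cd74 exon and had 0.33 ± 0.02 counts per Cd74 count in control and 0.32 ± 0.02 in optimized libraries (SD, n = 3 each). Whether its reads were also counted for Cd74 is not stated. The marker sums of dendritic cells and border-associated macrophages given above were lower in the same libraries, and their part in the fall of Cd74 was not tested.

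Since Cd74 fell while H2-Ab1 rose, their balance shifted in every library. Counts of Cd74 per count of H2-Ab1 were 12.7, 19.7 and 16.9 in control and 3.58, 3.28 and 3.36 in optimized libraries, without overlap. Cd74 made up 53.3%, 53.4% and 53.4% of the summed CPM of the 10 members under control conditions, and 21.9%, 19.9% and 19.9% under optimized conditions. These shares varied little within a group, although optimized library 1 held less of the whole list than the others. The sum itself was 102 ± 9.43 CPM in control and 156 ± 31.4 CPM in optimized libraries (SD, n = 3 each), 1.53-fold higher, and 2.61-fold higher without Cd74.

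**Figure D2:**
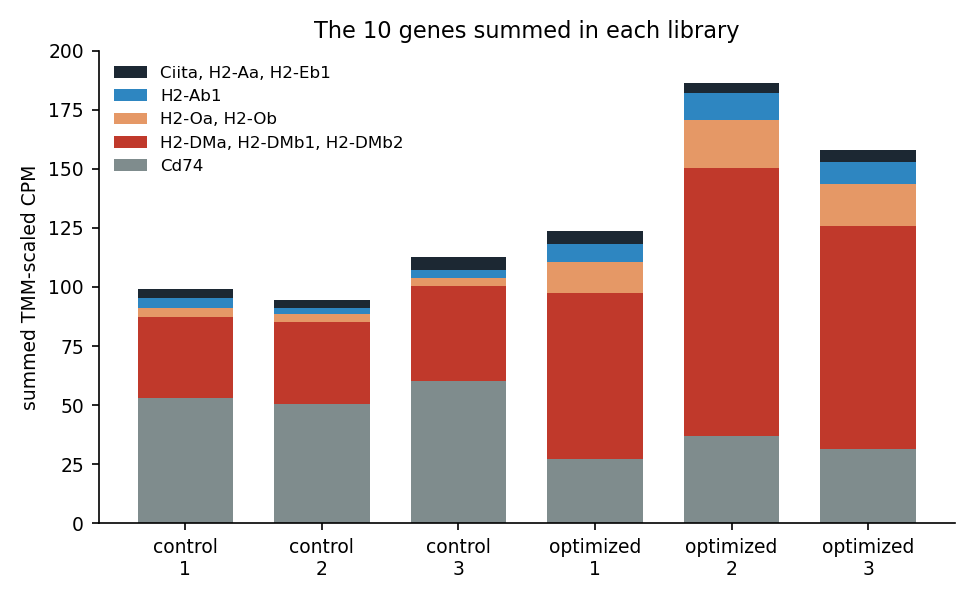
Summed TMM-scaled CPM of the 10 genes in each library, stacked by role (Cd74, the H2-DM genes, the H2-DO genes, H2-Ab1, and the remaining 3 genes). Cd74 takes 53.3% to 53.4% of each control bar and 19.9% to 21.9% of each optimized bar, while the H2-DM and H2-DO segments widen.

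The H2-DM genes rose together. H2-DMa, the alpha chain of the peptide exchanger (chromosome 17 from 34338515 to 34358958, plus strand), had 266, 271 and 321 counts in control and 687, 1167 and 815 counts in optimized libraries. Even the lowest optimized library was above the highest control library. Its level rose from 11.5 ± 0.37 to 40.6 ± 8.63 CPM (SD, n = 3 each), or 1.82 ± 0.15 as log2 fold change ± SE (edgeR, adjusted p = 1.3e-05). In GENCODE M39 its exons share 510 bases with Brd2, a chromatin reader gene on the opposite strand with 4749 to 7447 counts. The length behind the deposited FPKM values of H2-DMa was 2.85 times its M39 exon length. The gene model used in counting therefore differed, and its overlap with Brd2 is not known. Spread evenly over its exons, the reads of Brd2 would put 371, 376 and 451 counts on these bases in the control group and 288, 335 and 301 in the optimized group. That is more than the whole H2-DMa count in each control library and less than it in each optimized library. An even spread with all these reads counted for H2-DMa thus cannot hold in control libraries. The part of Brd2 reads in the H2-DMa counts was not tested. Brd2 itself was at -0.18 ± 0.08 as log2 fold change ± SE (edgeR, adjusted p = 0.12).

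The beta chain of H2-DM is encoded by a duplicated pair of genes in the mouse. H2-DMb1 (chromosome 17 from 34372046 to 34379204, plus strand) had 465, 483 and 679 counts in control and 667, 1203 and 952 counts in optimized libraries. Optimized library 1 fell just short of control library 3 in raw counts, but all optimized libraries were above all control libraries once scaled, at 31.6, 51.2 and 46.1 CPM against 20.3, 19.7 and 24.9 CPM. The level rose from 21.6 ± 2.81 to 43.0 ± 10.2 CPM (SD, n = 3 each), or 0.99 ± 0.17 as log2 fold change ± SE (edgeR, adjusted p = 0.0017).

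H2-DMb2 (chromosome 17 from 34362197 to 34370529, plus strand) had 55, 93 and 95 counts in control and 129, 291 and 184 counts in optimized libraries, which did not overlap. It rose from 3.23 ± 0.73 to 9.13 ± 3.15 CPM (SD, n = 3 each), or 1.499 ± 0.27 as log2 fold change ± SE (edgeR, adjusted p = 0.002). The coding sequences of both genes are 786 bases long and identical at 754 of them (95.9%), and 26.1% of the 100-base windows of H2-DMb1 occur without a mismatch in H2-DMb2. The split of reads between them is therefore uncertain. Their sum, 24.9 ± 3.04 CPM in control and 52.1 ± 13.2 CPM in optimized libraries (SD, n = 3 each), 2.10-fold higher, does not depend on that split. How reads that fit both genes were treated is not stated, so such reads may be missing from the sum. Between H2-DMb1 and the beta chain genes H2-Ob and H2-Ab1 the identity was 49.3% and 51.0%, with no shared window.

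H2-DO, the brake on H2-DM, held the largest difference of the list. H2-Ob, its beta chain (chromosome 17 from 34457836 to 34473388, plus strand), had 44, 46 and 46 counts in control and 214, 343 and 258 counts in optimized libraries. Control libraries were nearly equal, and the lowest optimized library exceeded all of them several-fold. The level rose from 1.83 ± 0.13 to 12.4 ± 2.24 CPM (SD, n = 3 each), or 2.76 ± 0.18 as log2 fold change ± SE (edgeR, adjusted p = 2.7e-06). Across the transcriptome 126 of the 2142 genes called higher had a larger log2 fold change than H2-Ob.

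H2-Oa, the alpha chain of H2-DO (chromosome 17 from 34311314 to 34314328, plus strand), rose less. It had 47, 36 and 50 counts in control and 67, 137 and 109 counts in optimized libraries, which did not overlap. Its level went from 1.78 ± 0.30 to 4.76 ± 1.40 CPM (SD, n = 3 each), or 1.42 ± 0.27 as log2 fold change ± SE (edgeR, adjusted p = 0.0028). BC051537, a gene on the opposite strand that shares 396 exon bases with it, had 21, 31 and 22 counts in control and 40, 82 and 62 counts in optimized libraries. Its log2 fold change ± SE was 1.49 ± 0.31 (edgeR, adjusted p = 0.0052). Spread evenly over its exons, its reads would put 2.9 to 4.3 counts on these bases in control and 5.5 to 11.3 counts in optimized libraries, fewer than H2-Oa had in each library.

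As H2-Ob rose more than its partners, the ratios within the editing machinery shifted as well. There were 0.94, 1.28 and 0.92 counts of H2-Ob for each count of H2-Oa in control and 3.19, 2.50 and 2.37 in optimized libraries. Per count of H2-DMb1, the value for H2-Ob was 0.09, 0.10 and 0.07 in control and 0.32, 0.29 and 0.27 in optimized libraries. Neither ratio overlapped between the groups. Together the 5 H2-DM and H2-DO genes summed to 39.9 ± 3.17 CPM in control and 110 ± 25.2 CPM in optimized libraries (SD, n = 3 each), 2.75-fold higher.

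**Figure D3:**
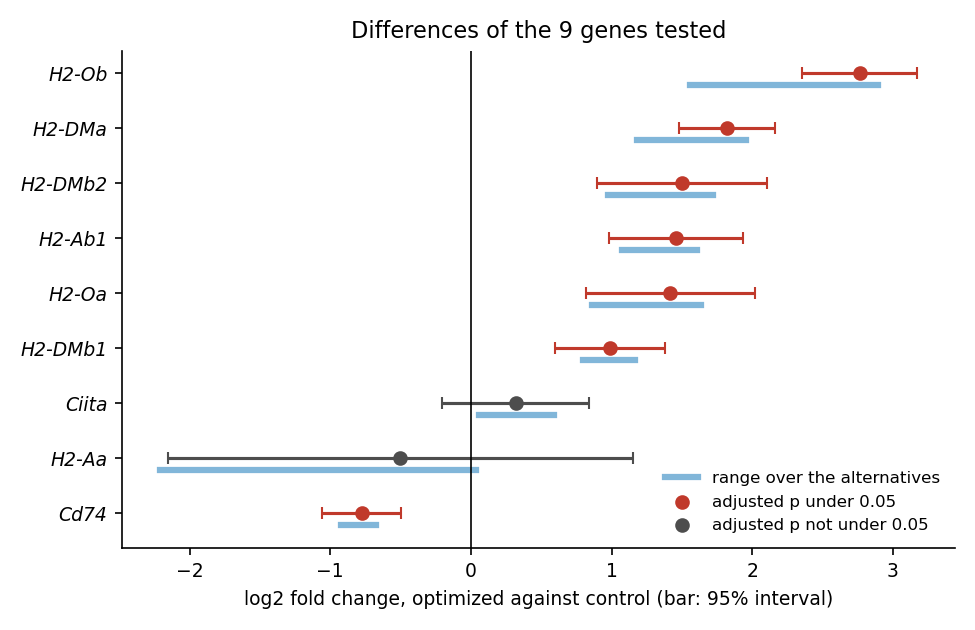
Log2 fold change of the 9 genes tested (points, with 95% intervals from edgeR; red where the adjusted p-value was under 0.05), optimized against control, with the range of the estimate over the alternative settings as a blue bar. H2-Ob lies highest at 2.76 and Cd74 lowest at -0.78, and the intervals of Ciita and H2-Aa include 0.

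Ciita, the coactivator of class II genes, did not pass the threshold. It lies on chromosome 16 from 10297923 to 10347694 (plus strand) and had 68, 65 and 125 counts in control and 81, 99 and 98 counts in optimized libraries. Control library 3 had more counts than any optimized library and, once scaled, lay above 2 of the 3, at 4.58 CPM against 3.84, 4.21 and 4.74 CPM. The level was 3.40 ± 1.03 CPM in control and 4.26 ± 0.45 CPM in optimized libraries (SD, n = 3 each), or 0.32 ± 0.23 as log2 fold change ± SE with a 95% interval from -0.20 to 0.84 (edgeR, adjusted p = 0.35). Changes of Ciita inside this interval remained compatible with these libraries. The value rested in part on control libraries, as it was 0.59 without control library 3 and 0.17 without control library 2. Dexi, on the opposite strand, shares 633 exon bases with Ciita and had 96 to 177 counts.

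Per length, the members spanned more than 2 orders of magnitude. In control libraries the mean FPKM ran from Cd74 at 39.1 ± 2.15 over H2-DMb1 at 17.1 ± 1.56 and H2-Ab1 at 2.91 ± 0.68 down to H2-Eb1 at 0.25 ± 0.11 (SD, n = 3 each). H2-Ab1, H2-DMb2, H2-Oa and H2-DMa followed each other at 2.91, 1.81, 1.48 and 1.42 FPKM, and H2-DMb2, H2-Oa and H2-DMa did not differ beyond their spread. H2-Ob at 0.61 FPKM stood below them and above H2-Aa, Ciita and H2-Eb1 at 0.39, 0.35 and 0.25 FPKM. H2-Aa and Ciita did not differ beyond their spread, nor did Ciita and H2-Eb1.

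Under optimized conditions H2-DMb1 led at 30.7 ± 6.31 FPKM and Cd74 came next at 20.7 ± 2.37 (SD, n = 3 each). H2-DMb2, H2-DMa, H2-Ob and H2-Oa lay close together at 4.61, 4.55, 3.76 and 3.57 FPKM, within their spread, below H2-Ab1 at 7.23 ± 1.13. Ciita, H2-Aa and H2-Eb1 remained lowest at 0.40, 0.26 and 0.26 FPKM. Set against all genes tested, H2-Ob moved from above 17.1% of them to above 46.0%, H2-DMb1 from above 77.5% to above 88.5%, and Cd74 from above 89.7% to above 83.2%. The length behind the FPKM values was 2.85 times the M39 exon length for H2-DMa and 0.40 times for H2-Aa. The order in the middle of the list depends on these lengths. With M39 lengths H2-DMa had rank 3 of the members in both groups, instead of rank 6 in control and rank 5 in optimized libraries, and H2-Ab1 had rank 5 in both instead of rank 3. As CPM per kilobase of M39 exons, the optimized libraries then had H2-DMa at 9.36 ± 1.99, H2-DMb2 at 4.89 ± 1.69, H2-Ab1 at 3.66 ± 0.72, H2-Oa at 3.12 ± 0.92 and H2-Ob at 2.28 ± 0.41 (SD, n = 3 each).

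On chromosome 17 the 8 members there lie within 224335 bases, from 34311314 to 34535648. Wholly inside this interval lie 5 other listed genes. BC051537, which overlaps with H2-Oa but reaches outside the interval, is not counted among them. It was higher, with a log2 fold change of 1.49 (edgeR, adjusted p = 0.0052). None of the 5 neighbours wholly inside was higher and 4 were lower, against 15.2% of all genes tested, although they sit between members that rose. They were the immunoproteasome genes Psmb8 and Psmb9 and the transporter genes Tap1 and Tap2, which serve class I presentation and lie between H2-DMb1 and H2-Ob. Tap1, a chain of the peptide transporter, had 2983, 3421 and 3519 counts in control and 1422, 1664 and 1607 counts in optimized libraries, without overlap. Its log2 fold change ± SE was -0.89 ± 0.09 (edgeR, adjusted p = 4.1e-05), while H2-DMb1 and H2-Ob on either side of this block had 0.99 and 2.76. Psmb9 had the lowest log2 fold change of the 5 at -0.95 and Brd2 the highest at -0.18. The spans of Psmb9 and Tap1 overlap at their starts on opposite strands.

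**Figure D4:**
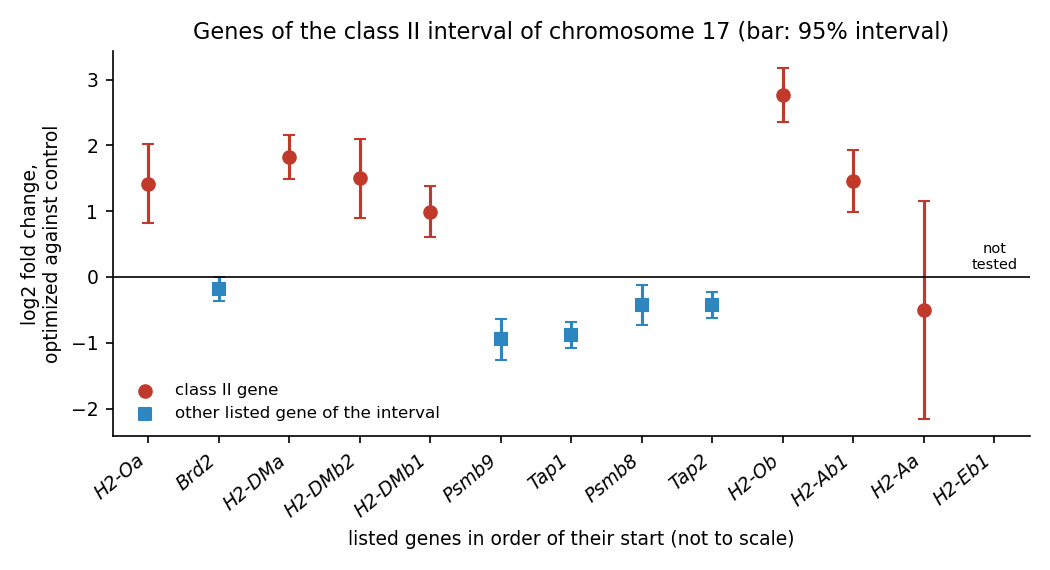
Log2 fold change, optimized against control, with 95% intervals from edgeR, in order of gene start (not to scale). Shown are the 13 listed genes wholly inside the class II interval of chromosome 17, which leaves out BC051537. The 6 class II genes that rose (red circles) flank Psmb9, Tap1, Psmb8 and Tap2 (blue squares), which were lower, and H2-Eb1 was not tested.

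Most class I presentation genes were lower. Of 11 class I genes tested, these 4 among them, 10 were lower, against 15.2% of all genes tested, and none was higher. The median of their log2 fold changes was -0.60. Outside the interval 6 of 7 were lower and none was higher. Psmb10, an immunoproteasome subunit, had the lowest log2 fold change at -0.997 and Erap1, a peptide trimmer, the highest at -0.25. H2-K1, a class I heavy chain, fell from 1960 to 1296 CPM, and Nlrc5, the class I counterpart of Ciita, fell from 80.2 to 49.3 CPM (log2 fold changes -0.60 and -0.70). B2m did not pass (log2 fold change -0.26, standard error 0.14; edgeR, adjusted p = 0.19). The difference between class I and class II genes was not tested as such.

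Upstream of Ciita, interferon-gamma signalling genes were lower more often than higher. Of 12 genes, 11 were tested, 6 were lower, 1 was higher and 4 did not pass. The shares over all genes tested were 15.2% lower and 14.7% higher. The median log2 fold change of the list was -0.43. Irf1, an interferon-induced activator of Ciita, had the lowest log2 fold change, with 2024, 2494 and 2618 counts in control and 590, 765 and 732 counts in optimized libraries, or -1.58 ± 0.11 as log2 fold change ± SE (edgeR, adjusted p = 3.4e-06). Ifngr1, the ligand-binding receptor chain, fell from 297 to 124 CPM (log2 fold change -1.26). Irf8, a myeloid lineage factor, was the one that rose (257 to 375 CPM, log2 fold change 0.55). Spi1, its partner on DNA, fell (341 to 231 CPM, log2 fold change -0.56). Ifng had no counts in any of the 6 libraries, which allows up to 3 counts in each.

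The factors on which Ciita docks showed little difference. Of 7 genes of the RFX, NF-Y and CREB group, all tested, 1 was higher, close to the 14.7% of all genes tested. None was lower, and the median log2 fold change was -0.01. Nfya, a subunit of the Y box factor, was the one that rose, from 117 to 160 CPM (log2 fold change 0.45, standard error 0.08; edgeR, adjusted p = 0.0013). Nfyc had the lowest log2 fold change at -0.20 (standard error 0.13; edgeR, adjusted p = 0.32). With limma on log2(FPKM + 0.1) none of the 7 was called, and with library size as the only scaling 1 was higher and 1 lower.

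Genes of endosomal antigen processing, which trim the invariant chain and make peptides, were higher more often than lower. Of 10 genes tested, 5 were higher and 1 was lower, against 14.7% and 15.2% of all genes tested. The other 4 did not pass, and the median log2 fold change was 0.44. Ctsh, an aminopeptidase, had the highest log2 fold change, 1.69, rising from 244 to 786 CPM. Ctsl, which can cut the invariant chain in macrophages and thymic epithelium, rose from 847 to 2165 CPM (log2 fold change 1.35). Ctss, the main protease for its last cuts in antigen-presenting cells, rose from 2500 to 3455 CPM (log2 fold change 0.47, standard error 0.14; edgeR, adjusted p = 0.036). Sppl2a, the intramembrane protease that clears the remaining Cd74 stub, was the one that fell (278 to 208 CPM, log2 fold change -0.42). The thiol reductase Ifi30 did not pass (log2 fold change 0.41, standard error 0.15; edgeR, adjusted p = 0.072).

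**Figure D5:**
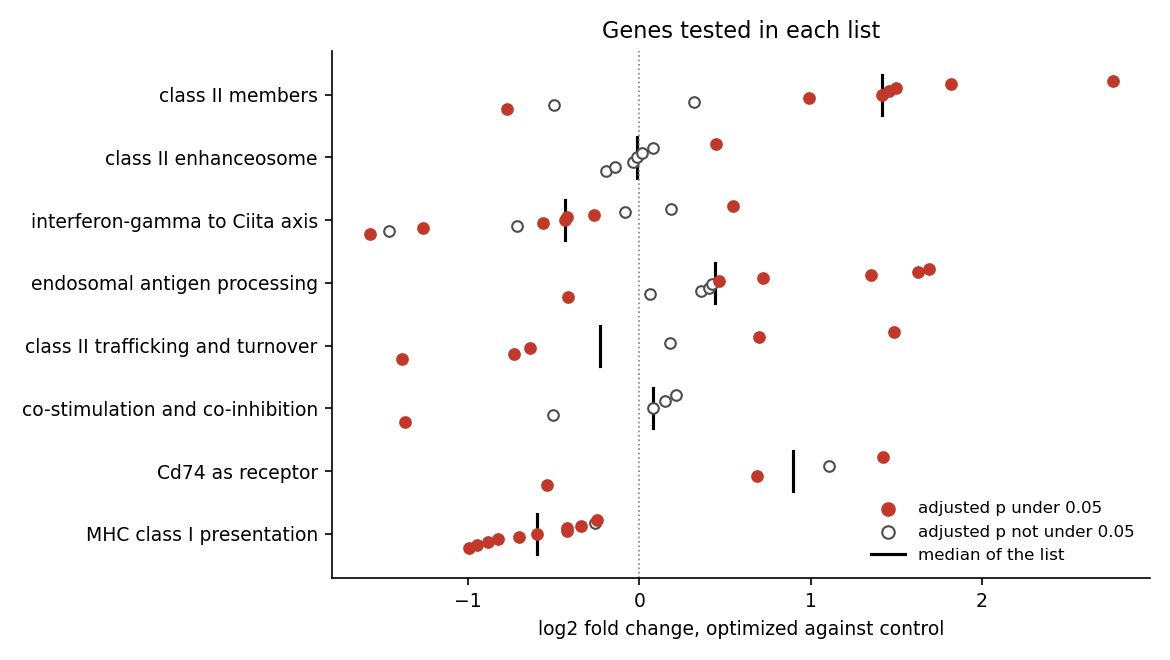
Log2 fold change, optimized against control, of the genes tested in each list (filled red where edgeR's adjusted p-value was under 0.05, open otherwise), with a bar at each list's median. The class II members have their median at 1.42, endosomal processing at 0.44, class I presentation at -0.60 and the interferon-gamma to Ciita axis at -0.43.

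Genes of class II trafficking and turnover were split. Of 6 tested, 2 were higher and 3 were lower, against 14.7% and 15.2% of all genes tested. Marchf1, the ubiquitin ligase that sends class II to degradation, fell from 65.1 to 39.2 CPM (log2 fold change -0.73, standard error 0.10; edgeR, adjusted p = 0.00038). Cd83, known to oppose that ligase, had the lowest log2 fold change at -1.38 (200 to 76.5 CPM). The tetraspanin gene Cd9 had the highest at 1.49 (421 to 1179 CPM).

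T cell co-stimulation genes gave 1 call among 5 tested, and it was lower, a share close to the 15.2% of all genes tested. Cd40 had 148, 202 and 223 counts in control and 31, 65 and 96 counts in optimized libraries, or -1.37 ± 0.32 as log2 fold change ± SE (edgeR, adjusted p = 0.0093). Cd86 had the highest log2 fold change of that list at 0.22 (standard error 0.10; edgeR, adjusted p = 0.14).

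Cd74 also serves at the cell surface as a receptor for the cytokine Mif. Of 4 tested genes of that axis 2 were higher and 1 was lower, against 14.7% and 15.2% of all genes tested. Mif rose from 74.3 to 120 CPM (log2 fold change 0.69), and Cxcr4, a co-receptor, had the highest log2 fold change at 1.42 (54.9 to 147 CPM). Cd44, its signalling partner, had the lowest at -0.54 (216 to 149 CPM). In the same libraries Cd74 itself fell.

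The split between higher and lower calls over all genes depended on scaling. The share of calls that were higher was 49.1% with TMM and 32.3% when only library size was used, and the median log2 fold change of all genes tested moved from 0.01 to -0.12. On that scaling the members still counted 6 higher and 1 lower, with a median log2 fold change of 1.27. Class I genes counted 11 lower, the interferon-gamma axis 1 higher and 7 lower, and endosomal processing 5 higher and 1 lower.

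Among 10478 other genes with a mean of at least 5 CPM, those whose log2 CPM over the 6 libraries followed the mean of the 9 tested members most closely were Gm30408, Plekhb2, Tmem37, Tnfsf13b and Dap, with Pearson coefficients of 0.998 to 0.997. The 6 libraries fall into 2 groups by culture, which all these genes share, so the coefficients are a description. Their log2 fold changes ranged from 0.16 for Plekhb2 to 2.04 for Tmem37. Tnfsf13b, the B cell survival cytokine BAFF, went from 2.69 ± 0.26 to 8.46 ± 1.55 CPM (SD, n = 3 each).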

How the data were processed

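Paired-end reads had been aligned by the authors with HISAT2 to mm39 (GRCm39) and assigned to genes with featureCounts. Raw counts and FPKM values of 41079 genes in 6 libraries were deposited. The versions, gene annotation, strand setting and rule for reads that touch several genes are not given in the sources used here. The deposited FPKM values equal counts over the product of a gene constant and a library constant, to within 3.7e-08 on the log2 scale, and the gene length behind them was taken from this.

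The analysis of counts used edgeR 4.0.16 (R 4.3.3): filterByExpr, TMM factors and the quasi-likelihood test (glmQLFit, glmQLFTest) of optimized against control with Benjamini-Hochberg adjustment over 14618 genes and a threshold of 0.05. The standard error is the log2 fold change divided by the square root of F. The common dispersion of 0.016 is a coefficient of variation of 0.13 between replicates, to which counting error adds in genes with few counts. Genes were placed with GENCODE M39, which held 35087 of the symbols. Promoter sequence came from GRCm39 at canonical starts. For overlaps, exons were merged per gene.

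Groups came from the labels. The members and lists were chosen with earlier results of these data known. Named were all members, the lowest and highest gene of each list with others of known role, neighbours past the threshold, and the 5 genes most like the members (log2(CPM + 0.1)). The alternatives were other scalings, DESeq2 1.42.0, filters, the replicate block, leaving out each library, and limma 3.58.1 on log2(FPKM + 1) and log2(FPKM + 0.1), the former also restricted to genes averaging 1 FPKM or more. The scripts were tested on simulated data.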

Additional observations from a re-analysis of the deposited data

How the results depend on the processing

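The 7 calls among the members kept their direction and stayed under the threshold in 105 of 105 fits, 15 alternatives for each gene. The largest adjusted p-value among them was 0.02, for H2-Oa without control library 2 (edgeR). Fold changes on the log2(FPKM + pseudocount) scale are smaller for genes with low values. H2-Aa reversed to 0.036 without optimized library 2 and was called at -2.21 without optimized library 1. Leaving out each library in turn gave 1 to 2 members lower and 6 in each fit higher. With limma on genes averaging 1 FPKM or more, 1175 genes were called higher in place of 2142. The summed level was 1.16-fold higher with FPKM in place of CPM and 2.61-fold higher without Cd74, against 1.53-fold, and 1.38-fold to 1.69-fold when leaving out a library. Same-numbered libraries had deviations correlated at 0.41, -0.06 and 0.25, and libraries of other numbers at -0.45 to 0.38. These ranges overlapped, and the numbers were not taken as pairs. With the replicate block, 2401 genes were higher and 2523 lower, and the members again counted 6 and 1. H2-Aa and H2-Eb1, with 1 to 19 counts, are limited by depth, and the causes of these shifts were not tested.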

Other observations

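Optimized library 1 held the highest counts of H2-Aa (16) and H2-Eb1 (19) among the 6 libraries, and the lowest scaled levels of H2-Ab1, H2-DMa, H2-DMb1, H2-DMb2, H2-Oa and H2-Ob within its group. In the same library Plac8, a monocyte marker, had 54 counts against 0 to 1 in the other libraries. Ccr2, another monocyte marker, had 33 counts there against 10 to 24 elsewhere, and Cbr2, a marker of border-associated macrophages, had 53 against 13 to 30. Other markers of the same lists did not all follow. Ly6c2 had 1 count there, Chil3 had 0, and Vcan had 66 against 52 to 112 elsewhere. Lyve1 had 11 counts against 0 to 4, but Cd163 had 0. Pf4 and Ms4a7 had their lowest scaled levels of the optimized group there, at 175 and 208 CPM. Mrc1 was at 67.0 CPM, against 56.7 and 64.4 CPM in optimized libraries 2 and 3. Plac8, Ccr2 and Cbr2 were picked after their values had been seen, and their part in the counts of H2-Aa and H2-Eb1 was not tested.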
